A study of Mus musculus with 12 samples.

Results

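The transcripts described here come from 10 genes by which T cells and natural killer (NK) cells are recognised, measured in B cell sorts from the mouse peritoneal cavity (PerC). They are Cd3e, Cd3d, Cd3g, Trbc2, Cd4, Cd8a, Nkg7, Gzma, Klrd1 and Ccl5. They were picked by name, with their levels in these libraries known, to show the size of the T and NK cell signal in the sorts and the libraries that carried it. Of the 10, 9 had a row among the 56941 genes of the count table and all 9 were among the 15148 genes that passed the filter on low counts, while Klrd1 was not analysed here. Because the levels chose the genes, the differences between groups in these 9 are given as a description and without a test.

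RNAseq was done on 12 libraries, 3 biological replicates each of B2 and MemB from control mice and from KI mice. B2 were sorted as IgD+IgM+ and MemB, the class-switched memory B cells, as IgD-IgM-. The control mice were littermates, and as 3 mice of each genotype are given, a B2 and a MemB library may share a mouse. KI mice carried Cd21Cre and, in the Rosa26 locus, a Cre-dependent allele for a truncated gain-of-function GPR34 with GFP. GPR34 is a receptor for lysophosphatidylserine. Cd21Cre acts in mature B cells, and the study describes the reporter of the allele in no haematopoietic cells other than the B-lineage. It also acts in stromal follicular dendritic cells. The study's methods give 1 age range, of adult mice, for all of its animals, and the age behind each library is not given in the sources used here.

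The total per library was 29895068 to 39732124 estimated counts, so that 1 count was worth 0.0245 to 0.0341 CPM (the count scaled to a common library size with edgeR's TMM normalization). The 12 pairs of replicates within a group all differed by far more than counting noise. Gpr34 was at 3.42 to 6.87 CPM in control B2 and 100.3 to 113 CPM in KI B2, and at 18.8 to 30.8 CPM in control MemB and 132 to 168 CPM in KI MemB. The summed level of 12 B cell genes, Cd79a, Cd79b and Ms4a1 among them, was 4132 to 4807 CPM in all 12 libraries, with Ms4a1 at 622 to 932 CPM, so B cell transcripts were present in each sort at a similar summed level. In bulk RNA, fewer T or NK cells and less RNA in each of them cannot be told apart.

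T cells recognise antigen through the T cell receptor, whose alpha and beta chains bind the antigen and whose CD3 chains carry the signal into the cell. CD4 and CD8 are coreceptors that bind MHC class II and class I molecules and mark helper and cytotoxic T cells. NK cells and cytotoxic T cells kill through granules of perforin and granzymes and, once activated, release chemokines such as CCL5. The peritoneal cavity holds both types beside its B cells and macrophages.

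Cd3g, Cd3d and Cd3e lie side by side at chr9:44880870-44920925 in GRCm39, a span of 40056 bases, with 1347 bases between Cd3g and Cd3d. Trbc2 lies on chromosome 6 at 41523664 to 41525286, downstream of Trbc1 at 41515152 to 41516815, and both encode a constant region of the T cell receptor beta chain. The first exons of the pair, 375 bases each, differ at 1 base, written C260A (the base of Trbc1, its position from the exon's 5′ end, the base of Trbc2), and are 99.7% identical. The last 150 bases of that exon are shown, because read pairs that lie within the exon and miss the differing base match both genes equally. They lie at chr6:41515377-41515526 for Trbc1 and chr6:41523889-41524038 for Trbc2, both on the plus strand of GRCm39, 5′ to 3′, with the base that differs in capitals:
Trbc1: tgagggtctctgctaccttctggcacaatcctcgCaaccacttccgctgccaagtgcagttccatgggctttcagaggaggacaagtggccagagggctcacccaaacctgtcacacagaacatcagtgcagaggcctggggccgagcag
Trbc2: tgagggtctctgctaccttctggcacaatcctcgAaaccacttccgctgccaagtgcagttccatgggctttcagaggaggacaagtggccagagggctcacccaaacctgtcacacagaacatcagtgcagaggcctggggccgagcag
Of the 643 different 50-base words in Trbc2 transcripts, 283 (44.0%) also occur in Trbc1. RSEM, the program that made the counts, divides such reads between genes, and the Trbc2 count was not a whole number in any of the 12 libraries. Cd3e shared 2.13% of its words, all of them with Gm48719, a gene on the opposite strand that overlaps it, and its count was not whole in 4 libraries. Cd3d, Cd4 and Cd8a shared under 1% of their words with other genes, and Cd3g, Nkg7, Gzma and Ccl5 shared 0. The other genes lie apart from these, Cd8a at chr6:71350411-71356157, Cd4 at chr6:124841655-124874758, Nkg7 at chr7:43086497-43087678 and Gzma at chr13:113230355-113237524.

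Among the transcripts of the T cell receptor complex, Trbc2 was the one with control MemB above and KI MemB below every B2 library. Its level was 2.18, 11.2 and 9.63 CPM in the 3 control B2 libraries, in the order of their replicate numbers, and 3.04, 11.1 and 4.56 CPM in KI B2. In control MemB it was 27.9, 31.2 and 20.9 CPM, and in KI MemB 0.237, 1.72 and 1.82 CPM. The lowest control MemB library thus lay above the highest of the 6 B2 libraries, while control B2 and KI B2 overlapped. Trbc2 was 26.7 ± 5.26 CPM (SD, n = 3) in control MemB and 1.26 ± 0.886 CPM in KI MemB. Because the split between Trbc1 and Trbc2 is uncertain, their sum was taken as well, with Trbc1 named for that reason. The sum was 31.7, 103 and 32.3 CPM in control MemB and 0.784, 3.09 and 3.81 CPM in KI MemB. In control B2 it was 10.4, 14.4 and 16.0 CPM, and in KI B2 3.61, 14.8 and 6.13 CPM, so control MemB stayed above every other library, and KI MemB replicate 3 now lay just above KI B2 replicate 1. Trbc2 held 20.9% to 87.9% of that sum, depending on the library.

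Cd3d, a signalling chain of the CD3 complex, was found mainly in control MemB. There it was at 4.89, 4.90 and 14.7 CPM, from 172, 167 and 489 counts. In KI MemB 2, 5 and 3 counts were left, or 0.0682, 0.153 and 0.0977 CPM. Control MemB libraries stood above the 9 others without overlap and held 91.8% of the summed Cd3d level of all 12 libraries. The B2 libraries ran from 0.0335 to 0.874 CPM in control and from 0.128 to 0.367 CPM in KI, and these groups overlapped each other and KI MemB.

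Cd3g, which encodes the gamma chain of the complex, did not follow Cd3d. It was at 5.94, 2.76 and 9.83 CPM in control MemB and at 0.102, 1.32 and 0.163 CPM in KI MemB. In KI B2 it reached 11.3, 4.09 and 6.79 CPM, as high as in control MemB, and in control B2 it was at 6.39, 1.14 and 0.184 CPM. KI MemB lay below control MemB and below KI B2 without overlap, but its range was shared with control B2. Cd3g was the sole transcript of the 9 whose highest library was a B2 library, KI B2 replicate 1.

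Cd3e, another chain of the complex, was carried mainly by replicate 2 in both MemB groups. Control MemB replicate 2 had 68.3 CPM against 7.70 and 13.9 CPM in replicates 1 and 3. KI MemB replicate 2 had 11.2 CPM against 0.750 and 0.489 CPM in the others. The control B2 libraries had 12.8, 18.2 and 6.68 CPM and the KI B2 libraries 1.11, 12.8 and 22.1 CPM. All 4 groups overlapped, control MemB and KI MemB through KI MemB replicate 2. The 3 CD3 genes lie next to each other and their proteins join 1 complex, yet across the 12 libraries the correlation of log2(CPM + 0.5) was 0.44 between Cd3e and Cd3d, 0.38 between Cd3e and Cd3g and 0.48 between Cd3d and Cd3g. These are descriptions over 12 libraries that fall into 4 groups.

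The coreceptor Cd4 was the transcript with the least difference between KI and control MemB. It was at 43.7, 10.8 and 16.4 CPM in control MemB. In KI MemB it was at 0.375, 4.84 and 42.2 CPM, so that replicate 3 lay next to the highest control library and replicate 1 was the lowest of all 12. Control B2 had 2.69, 8.18 and 1.35 CPM, and KI B2 0.959, 9.64 and 1.97 CPM. Control MemB lay above both B2 groups, and KI MemB overlapped with all 3 other groups.

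Cd8a, which encodes the alpha chain of CD8, was close to the limit of detection in KI MemB. There 4, 4 and 3 counts were found, or 0.136, 0.123 and 0.0977 CPM, below each of the 9 other libraries. In control MemB it was at 4.49, 9.50 and 0.600 CPM. Control B2 had 4.84, 0.436 and 0.184 CPM and KI B2 0.224, 8.98 and 4.62 CPM, and both groups overlapped with control MemB. A single replicate carried most of the Cd8a of control B2.

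Nkg7 encodes a membrane protein of the cytotoxic granules of NK cells and T cells. It was at 45.6, 18.4 and 2.85 CPM in control MemB, from 1604, 626 and 95 counts. In KI MemB 5, 9 and 9 counts gave 0.170, 0.276 and 0.293 CPM. KI MemB lay below control MemB and below KI B2, which had 3.16, 5.70 and 1.43 CPM. Control B2 had 5.48, 6.71 and 0.276 CPM, and its replicate 3 fell within the KI MemB range. Control MemB overlapped with both B2 groups through its replicate 3.

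Gzma, the granule protease granzyme A, was above 1 CPM in 1 library of each group but control B2. It reached 6.56 CPM in KI B2 replicate 2, 14.0 CPM in control MemB replicate 2 and 6.44 CPM in KI MemB replicate 1. In the other 9 libraries it was between 0.0336 and 0.537 CPM, and all 4 groups overlapped. In the KI MemB library with 6.44 CPM of Gzma, Nkg7 had 5 counts.

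Ccl5, a chemokine of memory T cells and NK cells that other cells can also make, had the highest group mean of the 9 per kilobase of exon sequence in each of the 4 groups, though not the highest value in every library. It was at 50.2, 119 and 34.2 CPM in control MemB and at 4.67, 3.83 and 9.15 CPM in KI MemB. Control B2 had 25.6, 30.3 and 3.07 CPM, and KI B2 15.5, 14.6 and 5.23 CPM. Control MemB stood above the 9 other libraries without overlap, and KI MemB overlapped with both B2 groups. Ccl5 lies on chromosome 11 at 83416602 to 83425942, where Gm73713 overlaps it on the opposite strand. Nkg7 and Ccl5 were the pair with the highest correlation among the 36 pairs of these transcripts, 0.88 over 12 libraries, against a median of 0.49 and a lowest value of -0.23 for Cd3g and Gzma.

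**Figure D1:**
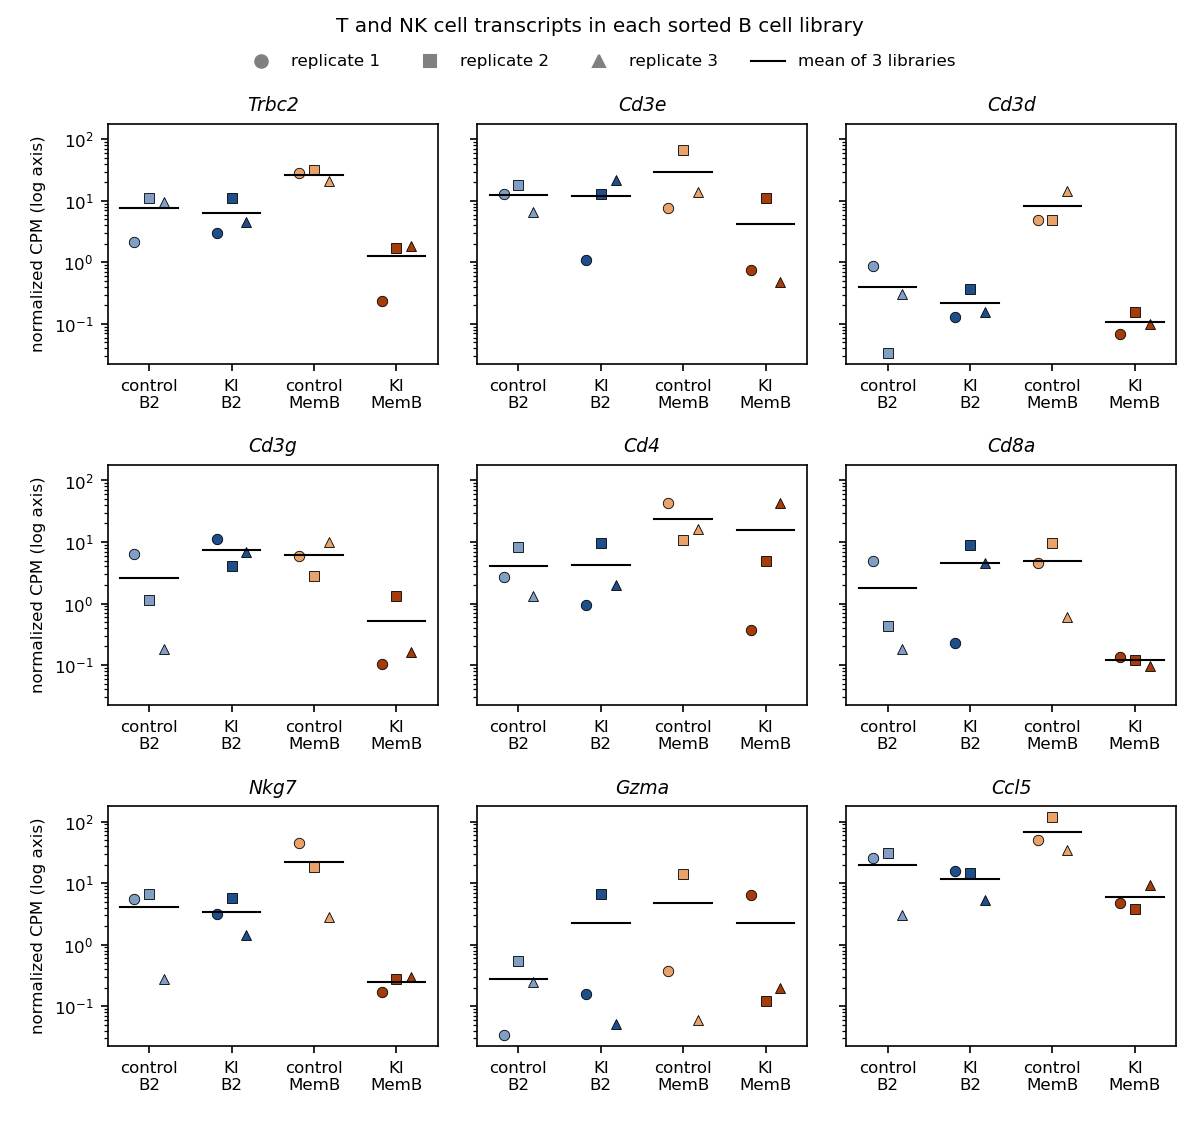
Level of each of the 9 transcripts in every library, as normalized CPM on a log axis, with groups along the x axis, one marker shape per replicate number and a bar at the mean of 3 libraries. Trbc2, Cd3d and Ccl5 were highest in all 3 control MemB libraries, Trbc2 and Cd8a were lowest in all 3 KI MemB libraries, and Gzma was above 1 CPM in 3 of the 12 libraries.

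Per kilobase of exon sequence, which allows genes to be compared, the order in control MemB was Ccl5 at 66.1 ± 43.9 CPM per kb, Trbc2 at 38.5 ± 7.60 and Nkg7 at 24.2 ± 23.5 (mean ± SD, n = 3). Cd3e followed at 7.34 ± 8.18, Cd4 at 5.26 ± 3.91, Cd3d at 3.15 ± 2.18, Gzma at 3.11 ± 5.15, Cd3g at 1.89 ± 1.08 and Cd8a at 1.34 ± 1.23 CPM per kb. Each gap from one gene to the next in this order was smaller than the larger of the 2 SDs. For a scale, Cd79a and Cd79b, which form the signalling part of the B cell receptor, were at 339 ± 18.2 and 381 ± 53.1 CPM per kb in the same group. The mean of the 3 CD3 genes per kb was 0.492%, 1.90% and 1.12% of the mean of Cd79a and Cd79b in control MemB. It was 0.0213%, 0.308% and 0.0187% in KI MemB, 0.490%, 0.471% and 0.145% in control B2 and 0.334%, 0.482% and 0.638% in KI B2. These are ratios of RNA and not shares of cells, since the RNA that a T cell and a B cell hold was not measured.

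Summed over the 9 transcripts, the signal was 60.9, 76.8 and 21.9 CPM in control B2 and 35.5, 73.8 and 46.9 CPM in KI B2. In control MemB it was 191, 279 and 113 CPM, and in KI MemB 13.0, 23.6 and 54.6 CPM. The group means were 194 ± 82.9 CPM in control MemB, 53.2 ± 28.2 CPM in control B2, 52.1 ± 19.7 CPM in KI B2 and 30.4 ± 21.6 CPM in KI MemB (SD, n = 3). Control MemB stood above all other libraries, while the other 3 groups overlapped. The control MemB mean was 6.40 times that of KI MemB and 3.65 times that of control B2. The first of these ratios was 11.9 without Ccl5 and Cd4, 10.6 without KI MemB replicate 3, and 4.97 to 7.73 without any 1 of the other MemB libraries. In no library did the 9 transcripts exceed 0.0259% of all counts, and the smallest share was 0.00123%.

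The sum hid large differences in which transcript supplied it. Control MemB replicate 2 held the highest value of 5 of the 9 transcripts (Cd3e, Trbc2, Cd8a, Gzma and Ccl5), replicate 1 of 2 (Nkg7 and Cd4) and replicate 3 of 1 (Cd3d). In KI MemB 1 transcript gave the largest part of each sum, and it differed between replicates. Gzma supplied 49.7% in replicate 1, Cd3e 47.5% in replicate 2 and Cd4 77.4% in replicate 3. In KI MemB replicate 3, with Cd4 at 42.2 CPM, the 4 T cell receptor complex transcripts summed to 2.57 CPM. In control MemB replicate 1, with Cd4 at 43.7 CPM, they summed to 46.4 CPM. At 1 CPM or more, 8, 9 and 7 of the 9 transcripts were seen in the control MemB libraries and 2, 5 and 3 in the KI MemB libraries, against 7, 6 and 4 in control B2 and 5, 8 and 7 in KI B2.

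Replicates of a group spread widely for these transcripts. The coefficient of variation of CPM had a median of 78.3% over the 36 combinations of transcript and group, and ran from 16.5% to 166%. For the 12 B cell genes the median was 14.1% and the range 3.61% to 71.3%.

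**Figure D2:**
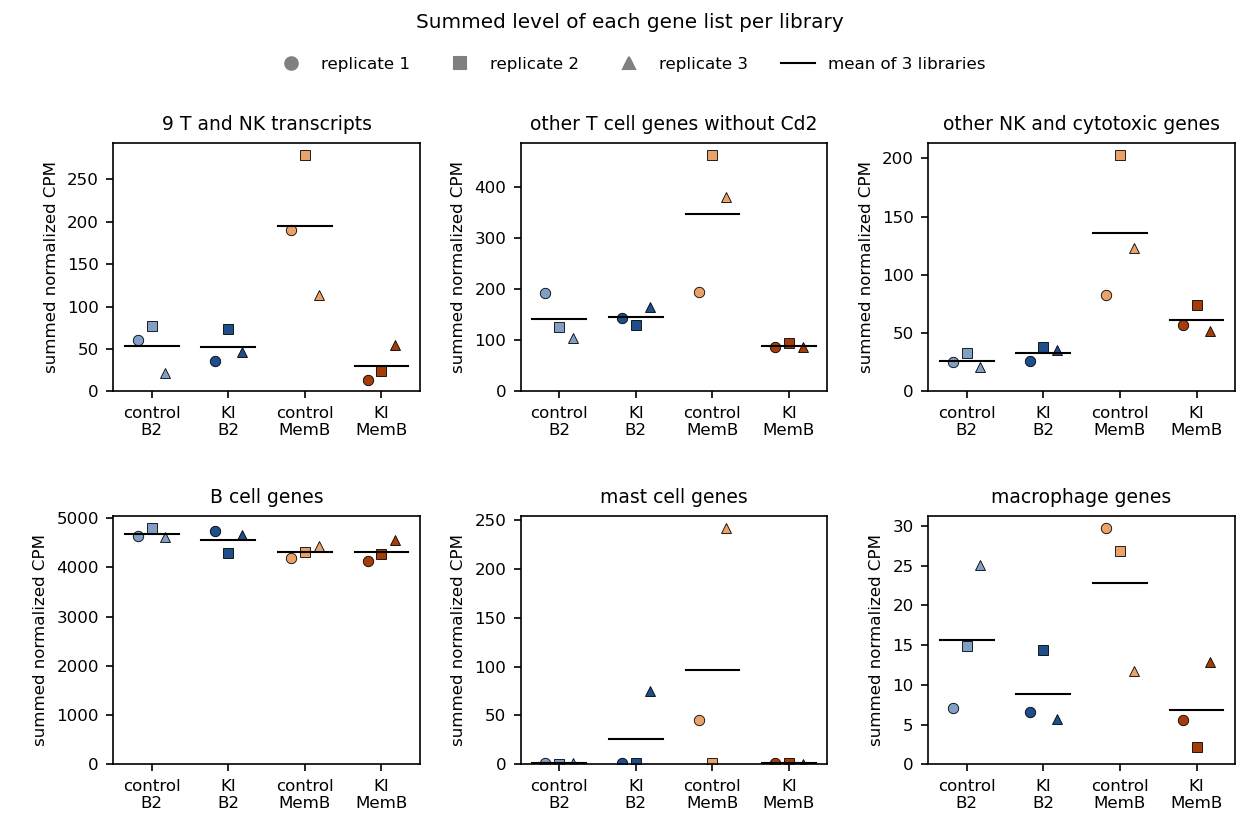
Summed normalized CPM of 6 gene lists in each library, on linear axes that start at 0, with groups along the x axis, marker shapes for replicate numbers and a bar at the mean of 3 libraries. The 9 T and NK transcripts summed to 113 to 279 CPM in control MemB and 13.0 to 54.6 CPM in KI MemB, while the B cell genes stayed between 4132 and 4807 CPM; the mast cell genes were above 2 CPM in 3 libraries.

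The first comparison asks how the KI allele changes the transcripts of MemB. The fitted log2 fold change of KI over control MemB was below 0 for all 9 transcripts. It was -6.47 (SE 1.46) for Nkg7, -6.21 (SE 1.96) for Cd3d, -5.31 (SE 1.91) for Cd8a and -4.40 (SE 1.09) for Trbc2. The other differences were -3.54 (SE 1.55) for Cd3g, -3.53 (SE 0.76) for Ccl5, -2.85 (SE 1.10) for Cd3e, -1.09 (SE 1.90) for Gzma and -0.58 (SE 1.10) for Cd4. For Gzma and Cd4 the difference was smaller than its standard error, and the log2 ratio of their group means (CPM + 0.5) turned to 1.95 for Gzma without control MemB replicate 2 and to 0.21 for Cd4 without control MemB replicate 1. For Cd3e that ratio was -1.28 without control MemB replicate 2 and -4.77 without KI MemB replicate 2, and for Nkg7 it was -3.89 without control MemB replicate 1. The median over the 9 was -3.54, beside -0.03 over all 15148 genes. In 6 of the 9, all but Cd3e, Cd4 and Gzma, every KI library was below every control library, which was so for 6.09% of all genes tested. As the genes were chosen with these values known, nothing is read from these counts.

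The same comparison in B2 gave no common direction. The fitted differences of KI over control B2 were above 0 for 4 of the 9 transcripts (48.4% of all genes were) and below 0 for 5 (51.6%), from -0.89 (SE 1.59) for Cd3d to 3.04 (SE 2.05) for Gzma, with a median of -0.07 beside -0.03 over all genes. The value for Gzma rests on KI B2 replicate 2. Cd3g was at 1.52 (SE 1.43) and Cd8a at 1.34 (SE 1.61). In none of the 9 did the KI and control B2 libraries separate, where 5.18% of all genes separated upward and 4.99% downward.

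The KI effect in MemB minus that in B2, fitted as an interaction, was below 0 for all 9 (50.2% of all genes), from -6.65 (SE 2.46) for Cd8a to -0.62 (SE 1.55) for Cd4, with a median of -4.13 beside -0.00 over all genes. It reuses the libraries of both preceding comparisons.

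**Figure D3:**
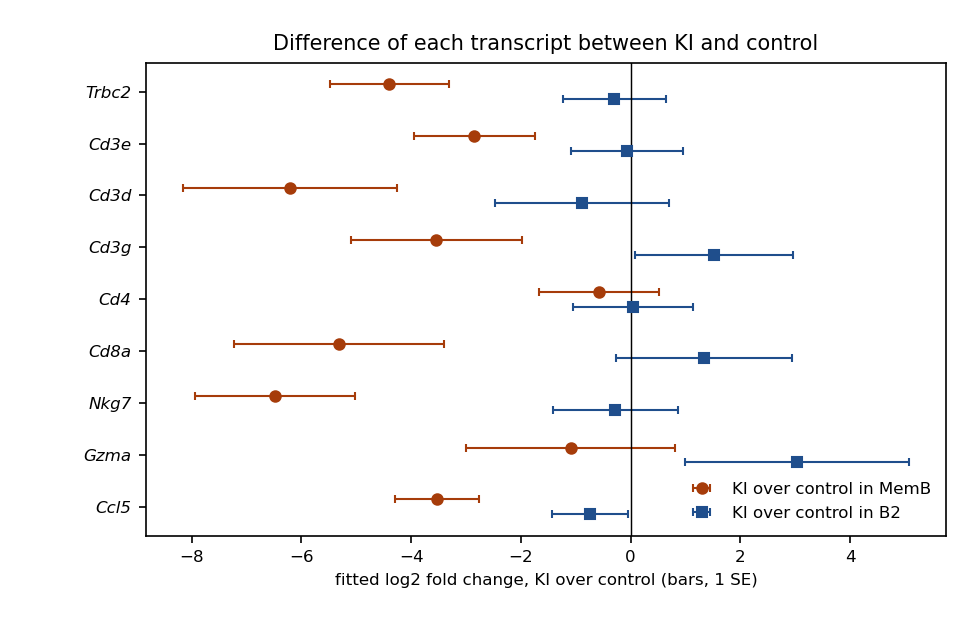
Fitted log2 fold change of KI over control for each of the 9 transcripts, in MemB (circles) and in B2 (squares), on the x axis, with bars of 1 SE and a vertical line at 0. The MemB values lie between -6.47 and -0.58 and the B2 values between -0.89 and 3.04.

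MemB were also set against B2 within a genotype, with libraries that the comparisons above also use. In control mice all 9 transcripts were higher in MemB (51.8% of all genes were), by log2 fold changes from 1.25 (SE 1.04) for Cd3e to 4.32 (SE 1.78) for Cd3d, with a median of 1.80 beside 0.04 over all genes. Ccl5, Cd3d, Cd4 and Trbc2 separated without overlap, as 6.33% of all genes did upward. In KI mice 8 of the 9 were lower in MemB (48.5% of all genes were), down to -5.23 (SE 1.91) for Cd8a, and Cd4 was higher by 1.92 (SE 1.13). The value for Gzma was -0.00 (SE 1.88). The median was -1.53 beside 0.03 over all genes. Nkg7, Cd3g, Cd8a and Trbc2 lay lower in every KI MemB library than in every KI B2 library, as 7.51% of all genes did.

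Beyond the 9, 63 further genes of T cells, NK cells and gamma delta or innate-like T cells were read as 3 lists, and 41 of them passed the filter on low counts. In KI against control MemB, 39 of the 41 had a fitted value below 0 (51.5% of all genes did) and 2, Cd247 and Tbx21, had one above (48.4%), with a median of -3.71 beside -0.03. Differentially expressed genes (DEGs) were those whose log2 fold change was over 1 in either direction, with p under 0.05 after adjustment in edgeR's quasi-likelihood test. edgeR called 0 of the 41, against 0.284% of all genes, and 21 were lower and 0 higher at an unadjusted p under 0.05, where 6.24% and 4.83% of all genes were. By the same limits DESeq2 called 12, all lower, as it did 2% of all genes: Trbc1, Thy1, Skap1, Gata3, Il7r, Icos, Trat1, Themis, Txk, Klrk1, Klre1 and Il2rb. A gene that passed the filter only through control MemB had to differ, so the whole list is given as well: of its 63 genes, the mean was lower in KI MemB for 55, higher for 2 and 0 in both groups for 6. In B2 the 41 were split, with 18 above 0 and 23 below, a median of -0.16 and 0 calls by edgeR (0.0066% of all genes) or DESeq2 (0.289%), 1 being higher and 2 lower at an unadjusted p under 0.05 (2.86% and 2.88% of all genes).

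Among the 4 genes of the T cell list with the highest CPM, Cd2, an adhesion receptor that mouse B cells make too, was at 245 to 455 CPM in all 12 libraries and did not separate the groups. Il7r, the receptor chain for the T cell survival factor IL-7, was at 8.87, 41.2 and 90.9 CPM in control MemB and at 2.49, 3.16 and 9.45 CPM in KI MemB, with 1 KI library inside the control range (log2 fold change -3.22, SE 0.89, edgeR adjusted p = 0.163). Tcf7, a transcription factor of naive and memory T cells, was at 24.6, 72.6 and 29.6 CPM against 11.5, 10.3 and 50.6 CPM, and these ranges overlapped (log2 fold change -0.81, SE 0.69, edgeR adjusted p = 0.726). Its highest KI MemB library was replicate 3, the one with high Cd4. Cd247, the zeta chain of the T cell receptor complex, went with neither its partners nor the groups: it was at 30.1, 16.7 and 2.14 CPM in control MemB, at 34.7, 11.7 and 5.64 CPM in KI MemB and at 0.154 to 54.0 CPM in B2. All 28 genes of that list summed to 547 to 815 CPM in control MemB, 340 to 542 CPM in KI MemB, 485 to 537 CPM in control B2 and 391 to 521 CPM in KI B2, so KI MemB overlapped with both B2 groups. Without Cd2, the remaining 27 genes of that list summed to 195 to 463 CPM in control MemB and 86.5 to 95.2 CPM in KI MemB, with 104 to 192 CPM in control B2 and 131 to 165 CPM in KI B2, so by this sum, chosen after the values were seen, the KI MemB libraries were the lowest of the 12.

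In the NK and cytotoxic list, Il2rb, the beta chain of the receptors for IL-2 and IL-15, was at 11.3, 23.6 and 47.8 CPM in control MemB and at 1.36, 3.03 and 0.945 CPM in KI MemB. Control B2 lay between, at 4.69 to 9.14 CPM, and KI B2, at 4.39 to 12.4 CPM, reached the lowest control MemB library. The KI and control MemB libraries did not overlap (log2 fold change -3.95, SE 0.99), but the edgeR adjusted p was 0.0882. Il18rap and Il18r1, the chains of the IL-18 receptor, did not separate the MemB groups. Il18rap was at 18.1, 49.5 and 7.73 CPM in control MemB and 18.9, 12.6 and 13.8 CPM in KI MemB. Il18r1 had 22.1, 41.9 and 29.1 CPM against 24.1, 6.74 and 23.4 CPM (edgeR adjusted p = 0.848 and 0.803). The summed NK list, at 51.7 to 73.9 CPM in KI MemB and 82.4 to 203 CPM in control MemB, was above that of all B2 libraries (21.0 to 38.4 CPM) in both genotypes. In KI MemB that rested on Il18r1, Il18rap and Tbx21: without these 3 genes, left out after their values were seen, the sum was 3.52 to 8.16 CPM in KI MemB, below every B2 library (11.2 to 31.3 CPM), and 35.5 to 108 CPM in control MemB.

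Tbx21 encodes T-bet, a transcription factor of NK cells and type 1 helper T cells that some memory B cells also make, and it went against its list. It was at 10.5, 46.9 and 6.32 CPM in KI MemB and at 6.65, 4.25 and 12.7 CPM in control MemB, and these ranges overlapped (log2 fold change 1.43, SE 1.09, edgeR adjusted p = 0.683). In KI B2 it was at 0.288, 0.196 and 0.153 CPM, so it rose in KI MemB over KI B2 by 6.63 on the log2 scale (SE 1.38, edgeR adjusted p = 0.0152). It was the 1 gene of the 41 that edgeR called in that comparison (0.363% of all genes), where DESeq2 called Tbx21, higher, and Skap1, lower (2.88%), and 2 were higher and 7 lower at an unadjusted p under 0.05 (5.29% and 5.27% of all genes). The call was lost without any 1 KI B2 library or without KI MemB replicate 2 (adjusted p 0.0926 to 0.239). In MemB over B2 of control mice edgeR called 0 of the 41 (0.264% of all genes) and DESeq2 3, all higher (Themis, Klrk1 and Il18rap; 1.59%), with 10 higher and 0 lower at an unadjusted p under 0.05 (5.81% and 4.8% of all genes) and a median of 1.37. In the interaction edgeR called 0 (0.066% of all genes) and DESeq2 4, all lower (Trat1, Themis, Klrk1 and Il2rb; 0.881%), with 1 higher and 10 lower at an unadjusted p under 0.05 (3.97% and 4.52% of all genes).

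**Figure D4:**
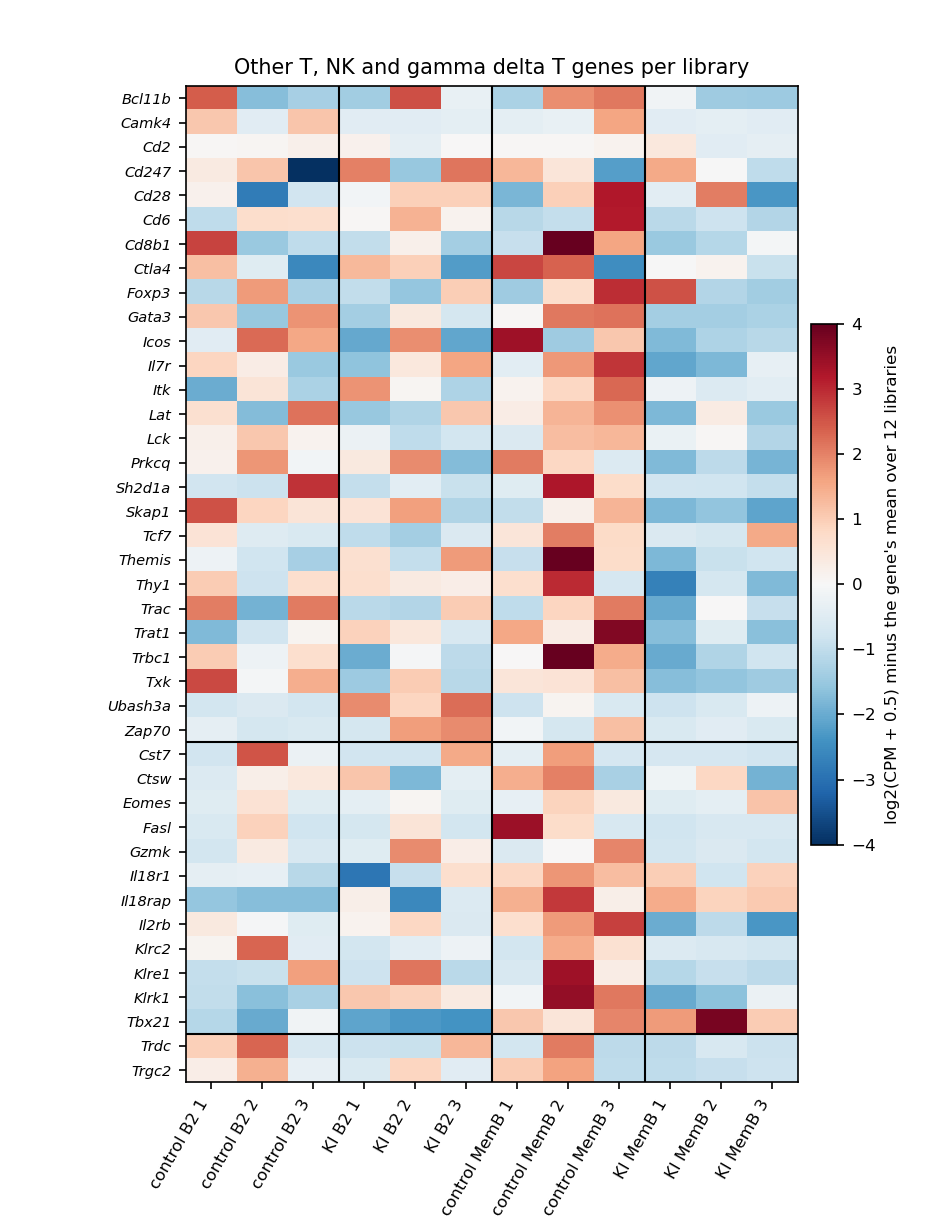
Heatmap of the 41 further T, NK and gamma delta T genes that passed the filter (rows, with lines between the 3 lists) in the 12 libraries (columns, with lines between the groups), coloured by log2(CPM + 0.5) minus the gene's mean over the libraries, with the colour scale ending at 4 and -4. Control MemB replicates 2 and 3 held the highest value of 12 and 11 of the 41 genes, and each KI MemB library that of 1.

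Genes of gamma delta and innate-like T cells were near the limit of detection, and 2 of the 10 listed passed the filter. Trdc and Trgc2, constant regions of the delta and gamma chains, were at most 4.66 and 2.55 CPM in any library, and in KI MemB at most 0.153 and 0.0651 CPM, and Trgc1 was at most 4.47 CPM. Il17a and Zbtb16 of that list, and Ifng and Ccl4 of the NK list, had 0 counts in all 12 libraries.

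Transcripts of other cells of the cavity were read beside the T and NK signal. Of 7 mast cell genes with a row, 1 (Tpsab1) had 0 counts throughout, and the sum was 45.0, 1.53 and 242 CPM in control MemB, 74.9 CPM in KI B2 replicate 3 and 0.805 to 1.77 CPM in the other 8 libraries. Cma1, a mast cell protease, was at 36.6, 0.792 and 118 CPM in control MemB and at 0.648, 0.797 and 0.391 CPM in KI MemB (log2 fold change -6.40, SE 1.41, edgeR adjusted p = 0.0374), and Cpa3 was at up to 77.8 CPM in control MemB. The macrophage list of 14 genes summed to 11.8 to 29.8 CPM in control MemB and 2.16 to 12.9 CPM in KI MemB, with 5.69 to 25.0 CPM in B2. Its defining genes C1qa, C1qc, Cd14, Fcgr1 and Gata6 were at 0 in all 12 libraries, while Cd68 reached 20.4 CPM and Adgre1 9.16 CPM, both in control B2. The 4 macrophage genes tested were all lower in KI MemB than in control MemB (51.5% of all genes were), with a median log2 fold change of -2.89. Of these 4, edgeR called 0 (0.284% of all genes). DESeq2 called 1, lower (2% of all genes). This was Mrc1, a mannose receptor (log2 fold change -7.23, SE 2.43, edgeR adjusted p = 0.306, DESeq2 adjusted p = 0.0128). Mrc1 and Lyz2, 2 of the 4, were lower at an unadjusted edgeR p under 0.05 (6.24% of all genes). Here too, a gene that passed the filter only through control MemB had to differ. Over all 14 genes of the list, the mean was lower in KI MemB for 6, higher for 2 and 0 in both groups for 6. Of 8 neutrophil and eosinophil genes, 5 including S100a8 and S100a9 were at 0 throughout, and the sum was 0 to 2.05 CPM. Control MemB replicate 2, with the largest sum of the 9 transcripts, had 1.53 CPM of mast cell genes. Control MemB replicate 3, with the smallest sum of the 9 transcripts in its group, had 242 CPM. Within control MemB, replicate 3 also had the smallest sum of the gamma delta and innate-like list (1.98 CPM). The T cell list (547 CPM) and the NK list (82.4 CPM) were instead lowest in replicate 1 of that group. Dendritic cell genes, led by Flt3 at 7.06 to 123 CPM, summed to 9.11 to 154 CPM, with 18.8, 21.8 and 154 CPM in control MemB and 69.2, 92.7 and 66.8 CPM in KI MemB. Of the 4 tested, 3 were higher and 1 lower in KI MemB (48.4% and 51.5% of all genes), with a median log2 fold change of 1.45. The lower one was called by edgeR, which called 0.284% of all genes. This was Ccl22, a chemokine, which was at 6.34, 1.06 and 90.0 CPM in control MemB and at 0.511, 0.490 and 0.293 CPM in KI MemB (log2 fold change -6.22, SE 1.41, edgeR adjusted p = 0.0394). Plasma cell genes, led by Irf4 at 158 to 385 CPM, summed to 198 to 505 CPM. Of the 6 tested, 4 were higher and 2 lower in KI MemB than in control MemB (48.4% and 51.5% of all genes). The 1 that edgeR called (0.284% of all genes) was Jchain, which rose (log2 fold change 3.80, SE 0.68, edgeR adjusted p = 0.00495). Irf4 was lower in every KI MemB library (202 to 241 CPM) than in every control MemB library (267 to 385 CPM), as 6.09% of all genes were. Erythroid genes summed to 0 to 4.89 CPM. The part of these cells in the differences between groups was not tested.

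Among the other genes tested, those most like Cd3e across the 12 libraries, by Pearson's correlation of log2(CPM + 0.5), were Card6 (0.92), D3Ertd751e (0.89), Xpo5 (0.86), Otud5 (0.85) and Uchl5 (0.84). Among those most like Nkg7 were Zfp280c (0.93), Prpf40b (0.91), Ubash3b (0.88) and X1700028K03Rik (0.87). None of these is in the T or NK lists. With 12 libraries and 15019 genes compared, correlations of this size are a description of the libraries, which share groups and depth. Card6 was at 72.7 ± 25.0 CPM in KI MemB and 133 ± 52.0 CPM in control MemB, and Prpf40b at 0.477 ± 0.570 CPM against 11.8 ± 9.16 CPM (SD, n = 3).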

How the data were processed

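The submitters' processing notes and the study's methods name FastQC 0.12.1, cutadapt 4.5, STAR 2.7.11a on mm39 (the GRCm39 assembly) and RSEM 1.3.3, after amplified library preparation (Ovation RNA-seq System V2). The table that the authors deposited holds RSEM expected counts, not normalized, for each gene and library. Among values above 0, 32.2% had decimals, and all were rounded for tests. All columns were matched to libraries by name. Entries without a gene symbol (297, or 0.385% to 0.463% of counts) were tested and are not named.

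Tests used edgeR 4.0.16 in R 4.3.3 on all 12 libraries in 1 model of 4 group means, scaled by TMM, after filterByExpr (minimum count 10), with the robust quasi-likelihood test and p-values adjusted by Benjamini-Hochberg over 15148 genes. CPM are counts over TMM-scaled library sizes. The SE is the log2 fold change over the square root of the F statistic. DESeq2 1.42.0, other scalings and filters, a replicate block and leaving out each library were alternatives. The edgeR step was tested on simulated counts. Totals were 29895068 to 39732124 counts per library, amplified without molecular identifiers, so depth speaks only to counting error. Ribosomal RNA genes took 29.3% to 38.3%. p-values measure the spread between these replicates, and whether libraries share mice is not given.

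The members and lists were chosen with earlier results of these data known. Named by rule were the 4 genes of each T or NK list and the 2 of each other list with the highest mean CPM, those called, and the 5 most like Cd3e and Nkg7 each. Gene models are GENCODE M39, and lengths per kb are merged exons of all transcripts. Trbc1 was added for its shared sequence. A few genes that this rule names are not reported here.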

Additional observations from a re-analysis of the deposited data

Results flagged for a closer look

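Trbc2 was higher in every control MemB than in every control B2 library, and lower in every KI MemB than in every KI B2 library. The difference between these effects was -4.10 on the log2 scale. No test of it is given, since Trbc2 was chosen with its levels known. Il2rb, the chain shared by the IL-2 and IL-15 receptors, showed the same opposite separations, with a difference of -4.20 (edgeR interaction, adjusted p = 0.359).

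Among markers of other cells, the KI effect in MemB differed from that in B2 by 4.43 for Jchain, the joining chain of secreted IgA and IgM, and by -9.45 for Cma1, a mast cell protease (edgeR interaction, adjusted p = 0.0463 for both). Mast cell genes summed to over 2 CPM in 2 control MemB libraries and 1 KI B2 library, and the part of these 3 libraries in the Cma1 value was not tested.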

How the results depend on the processing

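With a library left out, the log2 ratio of KI over control MemB means (CPM + 0.5) stayed below 0 for 7 of the 9 transcripts, from -4.77 to -1.28 for Cd3e, -5.44 to -3.89 for Nkg7, -4.08 to -3.15 for Cd3d, -3.40 to -2.24 for Cd3g, -4.20 to -3.58 for Trbc2, -3.60 to -2.30 for Cd8a and -3.85 to -2.74 for Ccl5. It ran from -2.96 to 0.21 for Cd4, above 0 without control MemB replicate 1, and from -3.01 to 1.95 for Gzma, above 0 without control MemB replicate 2. Counts of DEGs moved with the tool. In KI against control MemB edgeR's 43 became 479 with DESeq2's Wald test, 90 without a filter on low counts, 22 with a non-robust fit and 15 to 50 with 1 library left out. In B2, 1 became 42 with DESeq2, 8 without a filter and 1 to 2 with a library left out. For the interaction, 10 became 209, 44, 4 with a non-robust fit, and 5 to 10. For MemB over B2, 40 in control became 398, 96, 24 and 19 to 42, and 55 in KI became 396, 105 and 27 to 60. Of the 41 further T and NK genes, 0 called in MemB became 12 with DESeq2, and 0 to 0 with a library left out. Without a filter, when list genes beyond the 41 were tested too, 1 list gene was called in MemB. The count of calls among the 41 became 4 with DESeq2 in the interaction, 3 in control MemB over B2, and 2 (from 1) in KI, where leaving out a library gave 0 to 1.

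Whether the replicate numbers pair the samples was not settled. Same-numbered libraries correlated at -0.01 to 0.03 in their deviations, and the own number was the best match in most cases but not in all. With the replicate block, 37 DEGs were called in MemB and 6 in the interaction.

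Scaled to totals without ribosomal RNA, the summed signal was 80.7 CPM for control and 81.3 CPM for KI in B2, and 277 CPM and 43.8 CPM in MemB. Without Ccl5 and Cd4 it was 29.5, 36.1, 103 and 8.66 CPM. Leaving out a library gave 41.4 to 68.8, 41.2 to 60.4, 152 to 235 and 18.3 to 39.1 CPM. Values of a few counts, as for Nkg7 in KI MemB, are limited by counting error, and the smallest difference that could be detected was not tested.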
